A study of Mus musculus with 9 samples.

Results

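Gene expression after 10 days of hindlimb unloading and 1 day of reloading was examined in mouse gastrocnemius muscle through 10 genes of NRF2 and antioxidant defence: Nfe2l2, Nqo1, Gclc, Gclm, Slc7a11, Txnrd1, Srxn1, Sod2, Gpx3 and Prdx6. The genes were chosen by name as the gene for the NRF2 transcription factor and 9 antioxidant genes, with earlier results of these data known. All 10 were found by symbol among the 55487 genes of the count table, and 9 of them passed the filter on low counts that left 14851 genes for testing. Slc7a11 did not pass it.

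RNA was sequenced from gastrocnemius, a calf muscle made mostly of fast muscle fibres, of 9 mice. Control mice (n = 4) moved normally in the cage, Unloading mice (n = 2) were sampled after 10 days with the tail suspended so that the hind limbs bore no weight, and Reloading mice (n = 3) had the same 10 days of suspension and then 1 day of normal cage activity. The labels describe every mouse as wild-type, male and of the C57BL/6 strain, and name no added allele or agent in any group. The study names C57BL/6J mice for this experiment, and its methods describe female mice for the suspension procedure, which goes against the sex in the labels. Ages of these mice were not given in the sources used here, and each library is whole muscle, so fewer cells of a type and less RNA per cell cannot be told apart.

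NRF2, encoded by Nfe2l2, is a transcription factor that is held at a low level in unstressed cells because KEAP1 brings it to a CUL3 ubiquitin ligase for degradation. When oxidants or electrophiles modify KEAP1, NRF2 accumulates in the nucleus, pairs with a small MAF protein and binds antioxidant response elements (AREs) near its target genes, so its activity can change without a change in its own transcript. Its known targets include the enzymes that make glutathione, reduce thioredoxin, repair oxidised peroxiredoxins and detoxify quinones, whereas Sod2 and Gpx3 are antioxidant genes that also answer to other factors. In skeletal muscle, which produces oxidants during contraction and during disuse, these enzymes are studied as part of the defence of fibres and of the cells around them.

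Promoter sequences of the genes were searched for motif letters, and the stretches with a match are shown here. Whether a match goes with a change in level was not tested. RefSeq windows of the GRCm38.p6 build, from 250 bases before to 50 bases after each annotated start, were at hand for 8 of the 10 genes, with 3 starts for Txnrd1. Gclc and Prdx6, which both rose between Unloading and Reloading, were not among them, and sequence outside the windows was not searched. The letters TGACNNNGC or TGAGNNNGC, 2 forms of the core of an ARE that differ in the last base before the Ns, were looked for on both strands, and a match was held by 27.8% of 32851 windows in the whole table, 12.4% for TGACNNNGC and 17.6% for TGAGNNNGC. 5 of the 8 genes held a match in at least 1 window, namely Nfe2l2, Gclm, Slc7a11, Txnrd1 and Srxn1, and no match was found in these windows for Nqo1, Sod2 or Gpx3. Counted by window, as in the share of the whole table, 5 of their 10 windows held a match. In the lines that follow the matched letters are in capitals, each line reads 5′ to 3′ along the strand of the gene, and a match on the opposite strand therefore appears as its reverse complement.
Nfe2l2, chr2:75704885-75704913 (minus strand): tcagcccaccTGACTCCGCcatgccccgg
Gclm, chr3:122245413-122245441 (plus strand): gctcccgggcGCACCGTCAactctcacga
Slc7a11, chr3:50443692-50443720 (minus strand): taatgttggcGCTTTCTCAagctggagtt
Txnrd1, second start, chr10:82859104-82859132 (plus strand): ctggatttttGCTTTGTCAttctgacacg
Srxn1, first match, chr2:152105356-152105384 (plus strand): tctactgagaGCCGACTCAtcctctctgg
Srxn1, second match, chr2:152105469-152105497 (plus strand): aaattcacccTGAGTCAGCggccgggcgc

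Srxn1 was the gene with the most matches. Its window held 3 ARE-type matches, beginning 158 and 45 bases before the start and at position 29 after it, and 3 or more matches were found in 0.63% of all windows. It also held the letters TGACTCA, the site of AP-1 factors, whose opposite strand reads TGAGTCA, at chr2:152105422-152105428 and at chr2:152105479-152105485. The latter lies inside the second ARE-type match, so these letters are shared by both motifs. TGACTCA was present in 5.2% of all windows, and an ARE-type match together with TGACTCA in 1.9%. The cutoff of 3 and the joint share correspond to what the Srxn1 window itself holds, so these shares describe that window and are no test. Whether the matches play a part in the change of Srxn1 was not tested. The 250 bases before the Srxn1 start are printed because this gene changed most, with the matches in capitals.
Srxn1, chr2:152105274-152105523 (plus strand): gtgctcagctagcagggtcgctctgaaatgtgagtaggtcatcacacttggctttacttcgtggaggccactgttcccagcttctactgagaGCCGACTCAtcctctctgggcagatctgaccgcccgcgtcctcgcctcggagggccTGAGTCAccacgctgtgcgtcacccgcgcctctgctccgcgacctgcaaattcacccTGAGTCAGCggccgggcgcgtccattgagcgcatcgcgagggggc

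**Figure D1:**
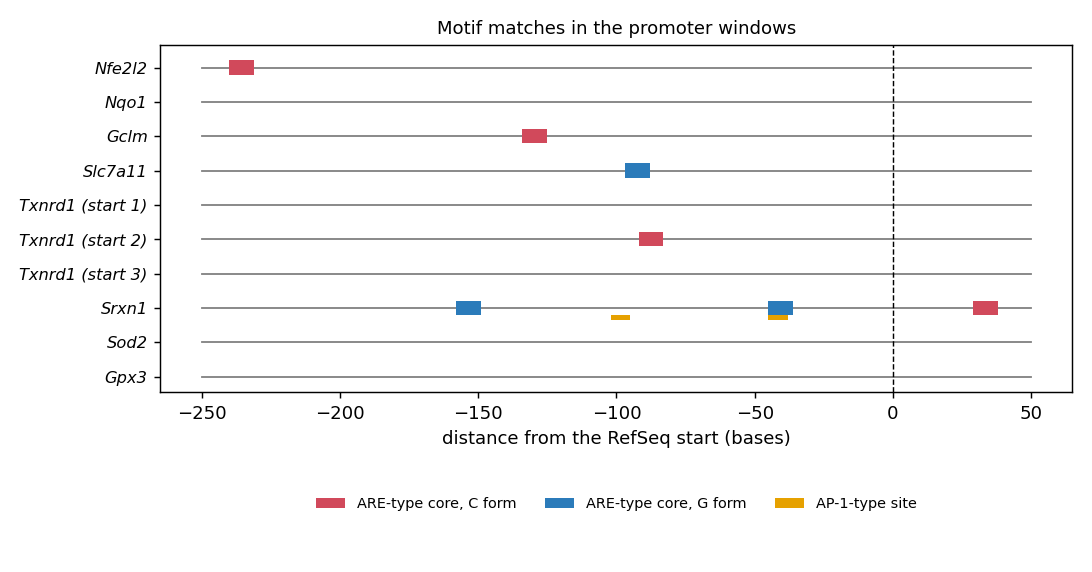
Position of the motif matches in the RefSeq windows of 8 genes, with the distance from the start in bases on the x axis and 1 line per annotated start. Red and blue boxes mark the ARE-type core beginning with TGAC or TGAG and yellow boxes mark TGACTCA. Srxn1 holds 3 ARE-type matches and both yellow boxes, while the lines of Nqo1, Sod2 and Gpx3 are empty.

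Levels are given as CPM (read pairs per 1000000 of the library), scaled with TMM factors that correct for the makeup of each library. The libraries held 9252443 to 19612101 counted read pairs, and a single pair was worth 0.0546 to 0.113 CPM. Fold changes were tested with edgeR's quasi-likelihood F-test (two-sided) in a single fit of all 9 libraries, and adjusted p-values are Benjamini-Hochberg values over all 14851 tested genes, with 0.05 as the threshold. The change of a gene with its standard error (SE) is on the log2 scale. The libraries are labelled as separate samples, and the p-values measure the spread between them.

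Between Unloading and Reloading, Srxn1, Prdx6, Txnrd1 and Gclc rose, Gpx3 and Sod2 fell, and Nfe2l2, Gclm and Nqo1 did not pass the test. Thus 4 of the 9 tested genes were higher, against 18.5% of all tested genes, and 2 were lower, against 19.0%. Because the genes were chosen with earlier results of these data known, these shares are no test of the set. Their median log2 fold change was 0.12 and that of all tested genes was 0.03. Between Unloading and Control, 1 gene was higher (Gpx3) and 1 was lower (Prdx6), against 4.4% and 5.5% of all tested genes. Between Reloading and Control, the same 4 genes were higher and the same 2 lower as between Unloading and Reloading, against 22.1% and 21.3% of all tested genes, and those comparisons share the Reloading libraries.

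**Figure D2:**
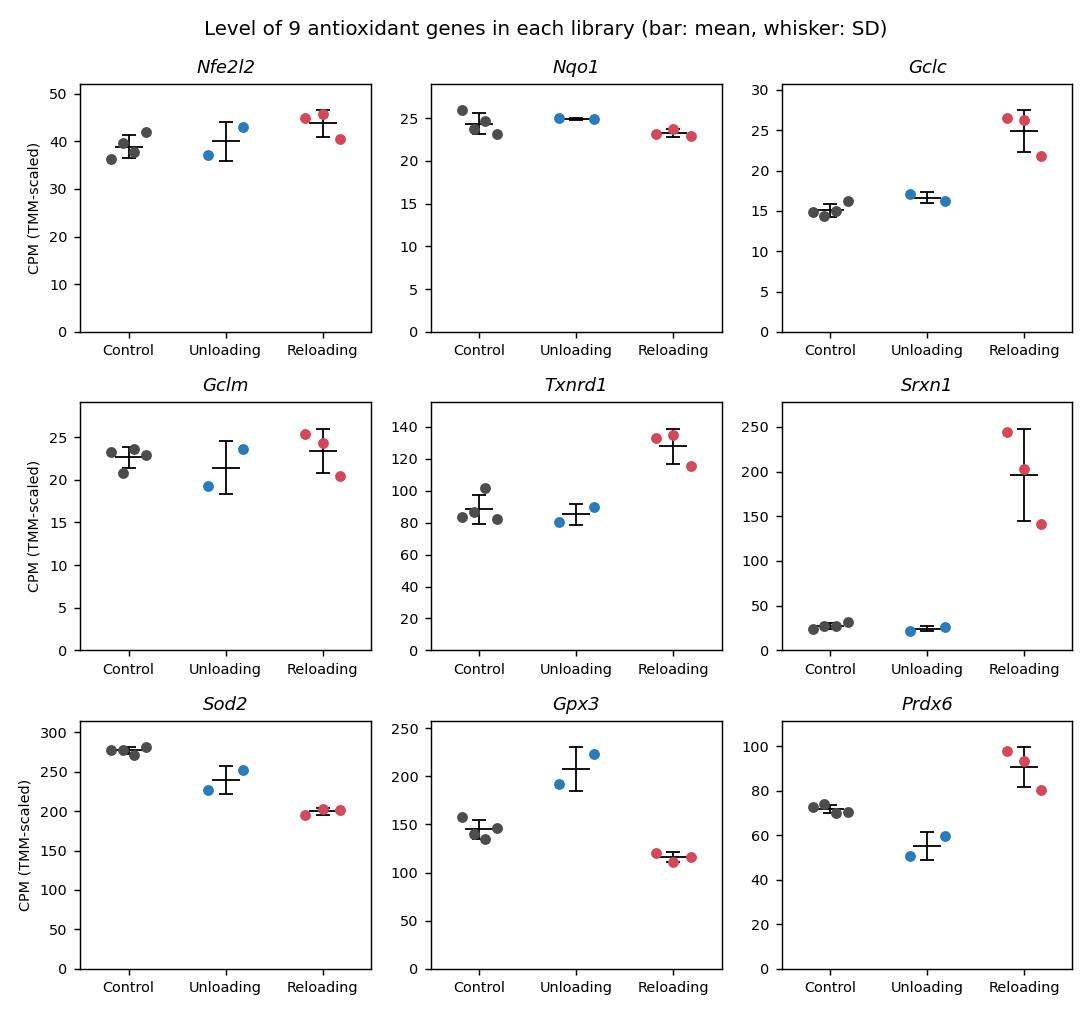
Level of the 9 tested genes in CPM (y axis from 0) in the 4 Control, 2 Unloading and 3 Reloading libraries. Each point is a library, the horizontal bar is the group mean and the whisker the SD. The 3 Reloading libraries of Srxn1 lie between 141 and 244 CPM, above all other libraries, while the Nfe2l2 and Gclm groups overlap.

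The transcript of NRF2 itself changed little. Nfe2l2 (ENSMUSG00000015839, chr2:75675513-75704641, minus strand) was at 36.3, 39.5, 37.8 and 41.9 CPM in Control 1 to 4, at 37.1 and 42.9 CPM in Unloading and at 44.9, 45.7 and 40.5 CPM in Reloading. The Reloading values were at the upper end but overlapped both other groups. Its log2 fold change was 0.12 ± 0.09 (SE, adjusted p = 0.314) between Unloading and Reloading, 0.04 ± 0.09 (adjusted p = 0.812) between Control and Unloading and 0.17 ± 0.08 (adjusted p = 0.103) between Control and Reloading. Scaling by library totals alone, which moved the median of all genes from 0.03 to 0.27 for Reloading against Unloading and from 0.01 to 0.25 for Reloading against Control, gave 0.37 (adjusted p = 0.00429) and 0.41 (adjusted p = 0.000485) for Nfe2l2.

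The thioredoxin arm held the largest change. Srxn1 (ENSMUSG00000032802, chr2:152105516-152111376, plus strand) encodes sulfiredoxin, which repairs peroxiredoxins that have been over-oxidised by peroxide. It was at 23.6, 27.0, 27.2 and 31.7 CPM in Control, at 22.1 and 25.95 CPM in Unloading and at 244, 203 and 141 CPM in Reloading. The lowest Reloading library was more than 4 times as high as any Control or Unloading library, and the Control and Unloading values overlapped. Compared with Unloading, Srxn1 was 8.13-fold higher in Reloading (log2 fold change 3.02 ± 0.19, SE, adjusted p = 4.77e-08) and, compared with Control, 7.14-fold higher (2.84 ± 0.15, adjusted p = 2.40e-09). Between Control and Unloading the difference of -0.19 ± 0.18 did not pass the test (adjusted p = 0.556).

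Txnrd1 (ENSMUSG00000020250, chr10:82833951-82897712, plus strand) encodes the cytosolic thioredoxin reductase, a selenoprotein that uses NADPH to recharge thioredoxin. Its level was 83.7, 86.5, 101.7 and 82.0 CPM in Control, 80.3 and 90.0 CPM in Unloading and 133, 135 and 115 CPM in Reloading. All 3 Reloading libraries were above the highest of the others. The log2 fold change was 0.58 ± 0.10 against Unloading (adjusted p = 0.000477) and 0.53 ± 0.09 against Control (adjusted p = 0.000149), and -0.06 ± 0.10 between Control and Unloading (adjusted p = 0.770).

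The genes of glutathione synthesis did not move together. Gclc and Gclm encode the catalytic and the modifier subunit of glutamate-cysteine ligase, the rate-limiting enzyme of glutathione synthesis. Gclc (ENSMUSG00000032350, chr9:77754535-77794485, plus strand) was at 14.9, 14.3, 14.9 and 16.2 CPM in Control, at 17.1 and 16.2 CPM in Unloading and at 26.5, 26.3 and 21.9 CPM in Reloading. Every Reloading library exceeded every other library, with a log2 fold change of 0.58 ± 0.11 against Unloading (adjusted p = 0.000921) and of 0.72 ± 0.09 against Control (adjusted p = 2.38e-05). Gclm (ENSMUSG00000028124, chr3:122245557-122270732, plus strand) was at 23.2, 20.8, 23.6 and 22.9 CPM in Control, 19.2 and 23.6 CPM in Unloading and 25.4, 24.3 and 20.4 CPM in Reloading. Here the 3 groups overlapped, and the log2 fold change was 0.12 ± 0.12 against Unloading (adjusted p = 0.467) and 0.04 ± 0.10 against Control (adjusted p = 0.756). Gclm shares 4.71% of its exon bases with the antisense gene Gm17494, which had 55 read pairs in all libraries together against 2702 for Gclm, and the counting did not use the strand. Scaled by library totals alone, Gclm was higher in Reloading than in Unloading by 0.37 (adjusted p = 0.0245).

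The ratio of Gclc to Gclm read pairs within a library, a measure that does not depend on how libraries are scaled and that was chosen after the values were seen, was 0.641, 0.689, 0.633 and 0.708 in Control, 0.891 and 0.685 in Unloading and 1.04, 1.08 and 1.07 in Reloading. Reloading libraries had the highest ratios, and the Control and Unloading values overlapped. No test of this ratio is given, because it was formed from values already seen.

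Slc7a11 (ENSMUSG00000027737, chr3:49892526-50443614, minus strand) encodes the light chain of the transporter that imports cystine, the source of cysteine for glutathione. It had 1, 0, 2 and 3 read pairs in Control, 0 and 2 in Unloading and 2, 1 and 0 in Reloading. These 11 read pairs were too few for a test, and a change was not detectable at this depth. A count of 0 allows a level of up to 3 read pairs, which covers counting error only. This limit was 0.2487 CPM in Control 2, 0.2245 CPM in Unloading 1 and 0.1987 CPM in Reloading 3. It does not apply to the libraries that held read pairs of Slc7a11.

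Nqo1 (ENSMUSG00000003849, chr8:107388225-107403206, minus strand) encodes NAD(P)H quinone dehydrogenase, the enzyme most often used as a readout of NRF2. It was at 25.9, 23.7, 24.7 and 23.2 CPM in Control, 25.0 and 24.9 CPM in Unloading and 23.1, 23.8 and 22.9 CPM in Reloading. The Reloading libraries lay just under both Unloading libraries and overlapped with Control. The log2 fold changes of -0.10 ± 0.09 (adjusted p = 0.412), 0.03 ± 0.09 (adjusted p = 0.846) and -0.07 ± 0.08 (adjusted p = 0.524) for Reloading against Unloading, Unloading against Control and Reloading against Control did not pass the test. With library totals alone the sign of the first and the last turned, to 0.15 (adjusted p = 0.212) and 0.17 (adjusted p = 0.0830).

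The genes that remove superoxide and peroxide moved in different directions. Sod2 (ENSMUSG00000006818, chr17:13006846-13040063, plus strand) encodes the superoxide dismutase of the mitochondrial matrix. It was at 277, 278, 272 and 281 CPM in Control, 227 and 252 CPM in Unloading and 194, 203 and 202 CPM in Reloading, so the 3 groups did not overlap and were ordered Control, Unloading, Reloading from high to low. The log2 fold change was -0.26 ± 0.07 between Unloading and Reloading (adjusted p = 0.00913) and -0.47 ± 0.06 between Control and Reloading (adjusted p = 1.93e-05), while -0.21 ± 0.07 between Control and Unloading did not pass the test (adjusted p = 0.0673). The call against Unloading was lost without Unloading 2 (-0.20, adjusted p = 0.111) and with library totals alone (-0.01, adjusted p = 0.880), which also brought the change against Control to -0.23 (adjusted p = 0.00397).

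Gpx3 (ENSMUSG00000018339, chr11:54902453-54910377, plus strand) encodes the secreted glutathione peroxidase found in plasma and around cells. It was at 158, 140, 135 and 146 CPM in Control, 192 and 224 CPM in Unloading and 121, 111 and 116 CPM in Reloading. The groups did not overlap, with Unloading highest and Reloading lowest. Gpx3 rose by 0.52 ± 0.08 in Unloading against Control (1.44-fold, adjusted p = 0.00196), was 1.79-fold lower in Reloading than in Unloading (-0.84 ± 0.09, adjusted p = 5.09e-06) and was also lower in Reloading than in Control (-0.32 ± 0.07, adjusted p = 0.00302). The last of these was lost when libraries were scaled by their totals alone (-0.08, adjusted p = 0.399).

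Prdx6 (ENSMUSG00000026701, chr1:161240112-161251219, minus strand) encodes a peroxiredoxin that also reduces oxidised phospholipids. It showed the opposite pattern, at 72.9, 74.2, 69.9 and 70.7 CPM in Control, 50.7 and 59.7 CPM in Unloading and 97.8, 93.5 and 80.5 CPM in Reloading. The groups did not overlap, with Unloading lowest and Reloading highest. Compared with Unloading, Prdx6 was 1.64-fold higher in Reloading (0.71 ± 0.10, adjusted p = 5.17e-05) and, compared with Control, 1.26-fold higher (0.33 ± 0.08, adjusted p = 0.00314). With library totals alone the change against Control was 0.57. Prdx6 was lower in Unloading than in Control (-0.38 ± 0.09, adjusted p = 0.0187), a call that was lost without Unloading 1 (-0.26, adjusted p = 0.290). Prdx6 has near-identical copies in the genome (Prdx6b and a pseudogene), and read pairs that matched several places were not counted.

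**Figure D3:**
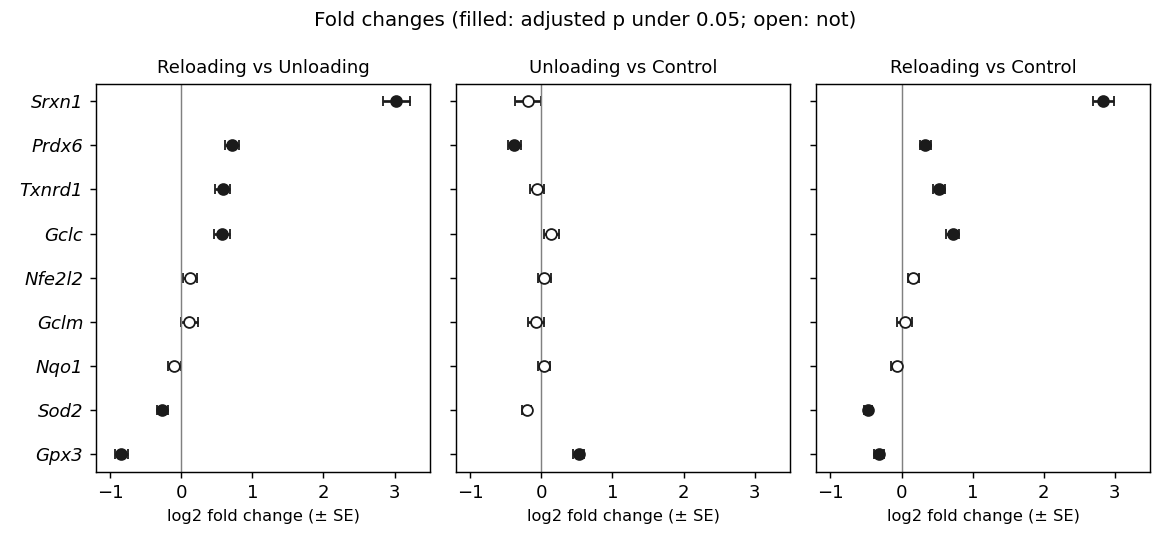
Log2 fold change with SE of the 9 tested genes (x axis) in Reloading against Unloading, Unloading against Control and Reloading against Control. Filled points passed an adjusted p of 0.05 and open points did not. Srxn1 stands at 3.02 and 2.84 in the comparisons with Reloading, and Gpx3 and Prdx6 are the filled points in Unloading against Control, at 0.52 and -0.38.

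The order of the levels was compared per kilobase of exon, since longer transcripts yield more read pairs. The length used is that of all annotated exons of a gene, 10008 bases for Sod2 and 1813 for Gpx3. It need not be the length of the transcripts present, and the order depends on it. In CPM, Sod2 was above Gpx3 in Control, with means of 277 and 145. In Control, Gpx3 was the most abundant of the 10 genes with 79.8 ± 5.49 CPM per kilobase (SD, n = 4), followed by Sod2 (27.7), Nqo1 (15.7), Prdx6 (14.97), Txnrd1 (12.5), Nfe2l2 (10.2), Srxn1 (9.70), Gclc (4.01), Gclm (3.60) and Slc7a11 (0.00921). Neighbours in this order did not overlap between libraries except Nqo1 with Prdx6 and Nfe2l2 with Srxn1. In Reloading, Srxn1 had moved from the seventh place to the top of the order, with 69.6 ± 18.4 CPM per kilobase (SD, n = 3), overlapping Gpx3 at 64.0 ± 2.66. Prdx6 (18.9) and Txnrd1 (18.1) overlapped each other in Reloading, Prdx6 also overlapped Sod2 (20.0), and Nqo1 (14.99), Nfe2l2 (11.5), Gclc (6.61) and Gclm (3.71) followed without overlap.

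The Reloading libraries differed in the level of these genes. Reloading 3 was the lowest of its group for 7 of the 9 tested genes, Srxn1 among them, where it reached 141 CPM against 203 and 244 CPM. Similarly, Unloading 1 was the lower of the Unloading libraries for 7 of the 9. Among the Control libraries none was lowest for more than 3 genes. The 7 genes of Reloading 3 include Nfe2l2, Nqo1 and Gclm, which did not pass the test in any comparison. The share of all tested genes for which each library was lowest is not given here, so these counts have no background beside them.

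Markers of the cell types in whole muscle differed between groups as well. The summed level of 8 muscle fibre markers, all of them detected in every library, lay between 181400 and 196400 CPM in Control, 198100 and 200500 CPM in Unloading and 135000 and 148500 CPM in Reloading, and 7 of 8 were lower in Reloading than in Unloading, where 19.0% of all tested genes were lower and 18.5% higher. The 13 macrophage markers summed to 87.2 to 108 CPM in Control, 89.4 to 89.7 CPM in Unloading and 181 to 203 CPM in Reloading, with 12 higher in Reloading than in Unloading, and 6 of 8 endothelial and 5 of 6 smooth muscle markers were also higher. Much of the macrophage sum came from Cd68, which went from a mean of 3.05 CPM in Unloading to 45.9 CPM in Reloading (15.3-fold). The other macrophage markers were 1.485-fold (Lyz2) to 2.96-fold (Fcgr1) higher, Cd14 without passing the test. In Reloading against Control, 6 of 8 fibre markers were lower and 10 of 13 macrophage markers higher, beside 21.3% and 22.1% of all tested genes. Of 10 neutrophil markers only 3 could be tested, their sum did not exceed 8.12 CPM in any library, and Ly6g and Cxcr2 were at 0 in both Unloading libraries. Fibroblast markers (7) summed to 486 to 705, 576 to 581 and 641 to 805 CPM, adipocyte markers (5) to 157 to 219, 208 to 212 and 226 to 259 CPM and erythrocyte markers (6) to 52.1 to 173, 67.3 to 120 and 57.3 to 139 CPM in Control, Unloading and Reloading. The fibroblast markers did not move together. In Reloading against Unloading 2 were higher (Col1a1 at 1.68 and Col3a1 at 1.38) and 2 lower (Pdgfra at -0.62 and Dcn at -0.49). The part of these shifts in the changes of the antioxidant genes was not tested.

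Skin transcripts were found in 2 libraries. Krt2, a keratin of the epidermis, had 1086 read pairs in Control 2 and 502 in Reloading 1 against at most 3 in the others. Without both libraries the 4 genes that rose between Unloading and Reloading and the 2 that fell kept their calls, with log2 fold changes of 2.83 for Srxn1, 0.65 for Prdx6, 0.55 for Txnrd1, 0.53 for Gclc, -0.25 for Sod2 and -0.87 for Gpx3. Among the other antioxidant genes named here, 7 calls were lost without both libraries, namely Rbx1 against Unloading (-0.24, adjusted p = 0.0512), Txn1 (0.27, adjusted p = 0.0668), Txnl1 (0.19, adjusted p = 0.0718) and Ggct (-0.30, adjusted p = 0.252) in Reloading against Control, and Gsta4, Msra and Txnl1 in Unloading against Control (adjusted p = 0.0878, 0.110 and 0.0951).

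To place the 10 genes in their pathway, 85 other genes of NRF2 regulation and antioxidant defence were read from the same fit, and all 85 could be tested. In Reloading against Unloading, 16 were higher (18.8%, beside 18.5% of all tested genes) and 27 lower (31.8%, beside 19.0%). In Unloading against Control, 5 were higher (5.88%, beside 4.4%) and 8 lower (9.41%, beside 5.5%), and in Reloading against Control 19 were higher (22.4%, beside 22.1%) and 32 lower (37.6%, beside 21.3%). The shares of higher genes were thus close to those of all tested genes. This list, too, was chosen with earlier results of these data known, so the shares are no test. Their median log2 fold changes were -0.09, 0.00 and -0.13, beside 0.03, 0.00 and 0.01 for all tested genes. With library totals alone the balance turned to 29 higher and 15 lower for Reloading against Unloading and 29 and 20 for Reloading against Control, so the directions given here are relative to the bulk of the genes.

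Among 13 regulators of NRF2, 3 were higher and 2 lower in Reloading than in Unloading. Sqstm1, named here after its values were seen, was at 536 and 576 CPM in Unloading and at 894, 765 and 703 CPM in Reloading. Of the 3 small MAF genes, whose products partner with NRF2, 2 rose, with Maff going from a mean of 3.36 to 8.76 CPM (1.38 ± 0.21, adjusted p = 0.000142) and Mafk from 23.8 to 37.1 CPM (0.64 ± 0.11, adjusted p = 0.000463), while Mafg, named here after its value was seen, did not pass the test (0.22 ± 0.11, adjusted p = 0.130). Cul3, the scaffold of the ligase that removes NRF2, fell from 393 to 253 CPM (-0.63 ± 0.09, adjusted p = 5.85e-05), and its RING partner Rbx1 fell by 0.28 (adjusted p = 0.0112). The adaptor Keap1 (-0.09 ± 0.09, adjusted p = 0.436), the repressor Bach1 (-0.21 ± 0.10, adjusted p = 0.123) and the related factor Nfe2l1 (0.06 ± 0.09, adjusted p = 0.604) did not pass the test, and with library totals alone Keap1 (0.16) and Bach1 (0.04) turned sign and Nfe2l1 was higher by 0.31 (adjusted p = 0.00635). The Rbx1 call was lost without Unloading 1 (-0.25, adjusted p = 0.0759), and with library totals alone Rbx1 was at -0.04 (adjusted p = 0.739).

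Glutathione synthesis and recycling had 3 of 12 genes higher and 3 lower. Gsr, glutathione reductase, rose from 21.5 to 30.9 CPM (0.52 ± 0.10, adjusted p = 0.00106) and Glrx, a glutaredoxin, from 10.98 to 16.5 CPM (0.58 ± 0.13, adjusted p = 0.00248). Chac1, which breaks glutathione down, was at 35.7 to 104 CPM in Control, 136 and 231 CPM in Unloading and 32.0 to 48.6 CPM in Reloading, a fall by 2.14 ± 0.34 from Unloading to Reloading (adjusted p = 0.000195). Glrx2, a mitochondrial glutaredoxin, fell by 0.45 (adjusted p = 0.00185), a call that was lost with library totals alone (-0.21, adjusted p = 0.0977).

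Among 19 genes for glutathione peroxidases, transferases and the exporter Abcc1, 9 were lower in Reloading than in Unloading and 1 higher, with a median of -0.37. Gstm7 fell from 2.35 to 1.03 CPM (-1.15 ± 0.31, adjusted p = 0.00894) and the microsomal transferase Mgst1 from 32.0 to 19.6 CPM (-0.72 ± 0.12, adjusted p = 0.000318), while Gpx8, a peroxidase of the endoplasmic reticulum, rose by 0.71 ± 0.19 (adjusted p = 0.0102). Without Unloading 1, the calls of Gstm7 (-0.84, adjusted p = 0.111) and Gpx8 (0.60, adjusted p = 0.0835) were lost. The mu-class transferases share much of their sequence, so their separate counts are uncertain.

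The 14 other thioredoxin and peroxiredoxin genes gave 1 higher and 5 lower. Txn1, the cytosolic thioredoxin that Txnrd1 recharges, rose by 0.45 ± 0.11 (adjusted p = 0.00602). Prdx3, the mitochondrial peroxiredoxin, fell by 0.55 ± 0.08 (adjusted p = 6.31e-05), and Txnip, which inhibits thioredoxin, fell by 0.67 ± 0.20 (adjusted p = 0.0160). The Txnip call was lost without Unloading 2 (-0.55) or Reloading 3 (-0.48, adjusted p = 0.0526). It was also lost in a robust fit (adjusted p = 0.126), with library totals alone (-0.42, adjusted p = 0.103) and in DESeq2's Wald test (-0.69, adjusted p = 0.0556). The Txn1 call was lost without Unloading 1 (0.38).

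Catalase (Cat), the peroxisomal enzyme that splits hydrogen peroxide, rose from 63.6 to 114 CPM (0.83 ± 0.12, adjusted p = 9.20e-05), and the extracellular superoxide dismutase Sod3 from 9.31 to 13.0 CPM (0.48 ± 0.17, adjusted p = 0.0418), while the other 2 genes of this group did not pass the test. Sod3 was close to the threshold and lost its call without Reloading 2 (0.38, adjusted p = 0.142) or Reloading 3 (0.51, adjusted p = 0.0566). It was also lost without Unloading 1 (0.47) or Unloading 2 (0.475), fits that leave 1 Unloading library. DESeq2's size factors (0.46, adjusted p = 0.0506) and DESeq2's Wald test (0.46, adjusted p = 0.0616) lost it too.

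Of 8 genes that supply NADPH, 2 were higher and 3 lower. Pgd and Taldo1, of the pentose phosphate pathway, rose by 0.69 ± 0.11 (adjusted p = 0.000232) and 0.37 ± 0.10 (adjusted p = 0.00731). Me1, cytosolic malic enzyme, and Idh2, mitochondrial isocitrate dehydrogenase, fell by 0.78 ± 0.08 (adjusted p = 6.44e-06) and 0.75 ± 0.08 (adjusted p = 5.34e-06). The Taldo1 call was lost without Unloading 1 (0.28, adjusted p = 0.0939).

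The 15 quinone, aldehyde and heme enzymes split into 4 higher and 5 lower. Hmox1, heme oxygenase 1, was at 4.03 to 5.86 CPM in Control, 4.94 and 7.16 CPM in Unloading and 16.9, 11.2 and 8.08 CPM in Reloading, a rise of 0.97 ± 0.26 (adjusted p = 0.00839) that was lost without Unloading 1 (0.74, adjusted p = 0.0943). Akr1b8, an aldose reductase family member, rose from 1.45 to 3.99 CPM (1.48 ± 0.32, adjusted p = 0.00224) and lost its call without Unloading 2 (1.13, adjusted p = 0.0509). Akr1b10 fell by 0.58 (adjusted p = 0.00102) and Fth1, the ferritin heavy chain that stores iron, by 0.47 (adjusted p = 0.000340). The ferritin light chain Ftl1, named here after its values were seen, went the other way. It was at 39.8 and 46.6 CPM in Unloading and at 78.7, 68.85 and 53.4 CPM in Reloading.

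**Figure D4:**
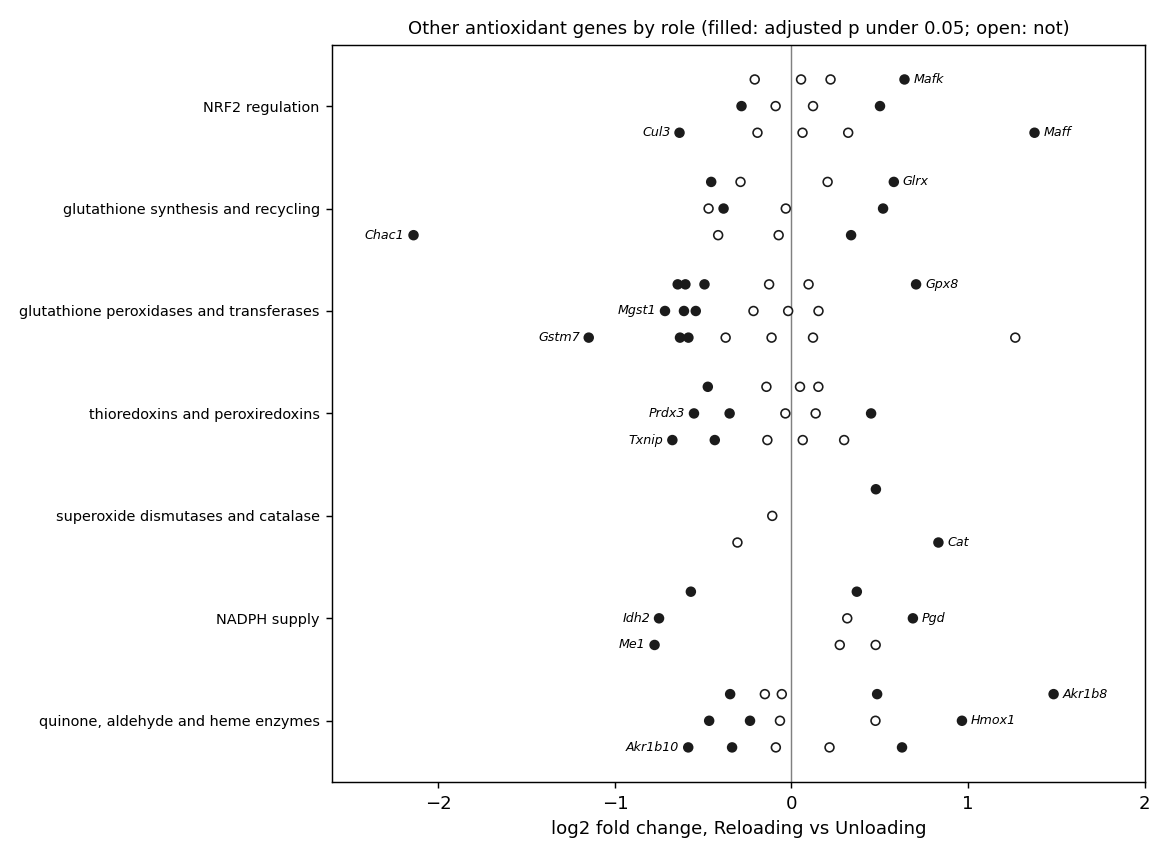
Log2 fold change (x axis) of the 85 other antioxidant genes in Reloading against Unloading, 1 point per gene, in rows by role and staggered within a row. Filled points passed an adjusted p of 0.05, and genes with the largest changes are named. In the row of glutathione peroxidases and transferases 9 filled points lie left of 0 and 1 lies right of it, with Gpx8 at 0.71.

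In Unloading against Control, 5 of the 85 genes were higher and 8 lower, and without Unloading 1 only 2 passed the test. Idh2 fell from 296 to 159 CPM (-0.90 ± 0.08, adjusted p = 3.02e-05), the one named gene whose call held with each library left out in turn. Chac1 rose from 58.7 to 183 CPM (1.65 ± 0.31, adjusted p = 0.00486), a call that was lost without Unloading 2 (1.21, adjusted p = 0.0594) and in a robust fit (adjusted p = 0.0818). Nqo2, a second quinone reductase (-0.67), Akr1b10 (-0.52), Gsta4 (-0.53), Glrx (-0.50), Msra (-0.45) and Gpx1 (-0.40) were lower, and Sesn1 (0.55), Abcc1 (0.48), Gsk3b (0.33) and Txnl1 (0.23) were higher, with adjusted p between 0.00300 for Abcc1 and 0.0480 for Msra. Each of these lost its call without Unloading 1, a fit that leaves 1 Unloading library, with Abcc1 at 0.43 and Msra at -0.26. Without Unloading 2, which also leaves 1 Unloading library, Glrx (-0.54), Gpx1 (-0.42), Gsk3b (0.34) and Txnl1 (0.27) lost their calls too. Gsk3b also lost its call without Control 3, and Gsta4 without Control 2 or Control 4. Msra and Txnl1 lost theirs with 2 groups only and with Control 2, Control 3, Control 4, Reloading 1, Reloading 2 or Reloading 3 left out. Keap1 (0.10), Bach1 (0.00), Hmox1 (0.19) and Nfe2l1 (-0.15) did not pass the test.

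Compared with Control, Reloading showed the same leading regulators, with Maff at 1.46 ± 0.18 (adjusted p = 1.19e-05), Mafk at 0.75 ± 0.09 (adjusted p = 1.70e-05) and Cul3 at -0.55 ± 0.07 (adjusted p = 3.03e-05). Keap1 (0.01 ± 0.07, adjusted p = 0.937), Bach1 (-0.21 ± 0.09, adjusted p = 0.0705) and Nfe2l1 (-0.09 ± 0.07, adjusted p = 0.348) did not pass the test, although Bach1 was lower without Control 2 (-0.27, adjusted p = 0.0207) and without both libraries with skin transcripts (-0.31, adjusted p = 0.0201). Hmox1 was 2.23-fold (1.16 ± 0.22, adjusted p = 0.000604) and Akr1b8 3.67-fold higher (1.88 ± 0.29, adjusted p = 8.92e-05). Idh2, at 289 to 302 CPM in Control and 87.9 to 103 CPM in Reloading, was 3.13-fold lower (-1.65 ± 0.07, adjusted p = 1.93e-10), having fallen in both steps. Pgd was higher by 0.86, G6pdx, the entry enzyme of the pentose phosphate pathway, by 0.73, Cat by 0.70, Gsr by 0.60, Slc3a2, the heavy chain that pairs with Slc7a11, by 0.54 and Abcc1 by 0.46. Prdx3 (-0.74), Prdx5 (-0.49), Me1 (-0.62), Mgst1 (-0.94), Gstm7 (-1.15), Chac2 (-0.78), Akr1b10 (-1.11) and Nqo2 (-1.01) were lower, and Gpx8 (0.71) was higher. For these genes adjusted p lay at or below 0.00344. Closer to the threshold were Rbx1 (-0.27, adjusted p = 0.00431), Txn1 (0.32, adjusted p = 0.0135), Txnl1 (0.20, adjusted p = 0.0179) and Ggct, of glutathione breakdown (-0.48, adjusted p = 0.0346). Txn1 lost its call without Reloading 1 (0.24, adjusted p = 0.0789), Txnl1 without Control 3 (0.16, adjusted p = 0.0759) or Reloading 2 (0.19, adjusted p = 0.0516), and Ggct without Control 1, Control 2, Control 3, Reloading 1 or Reloading 2 (adjusted p = 0.0663 to 0.127). With library totals alone, Rbx1 (-0.03, adjusted p = 0.717) and Ggct (-0.25, adjusted p = 0.270) lost their calls and Keap1 was higher by 0.25 (adjusted p = 0.00717).

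The genes whose pattern over the 9 libraries was most like that of a given gene were found by the root mean square difference of log2 CPM, centred per gene, among 9868 genes with a mean log2 CPM of at least 2. Closest to Srxn1 were Hsp90aa1, an inducible HSP90 chaperone, at 0.21, Enah, an actin regulator, at 0.22 and Hspb7, a small heat shock protein of muscle, at 0.23. Their log2 fold changes between Unloading and Reloading were 2.57, 2.89 and 3.03, beside 3.02 for Srxn1, and between Control and Unloading 0.05, 0.10 and -0.10. Closest to Gpx3 were H6pd (0.08), Cbfb (0.10) and Stard3 (0.10), of which H6pd makes NADPH in the endoplasmic reticulum. H6pd had means of 80.7, 119 and 71.3 CPM in Control, Unloading and Reloading. Nfe2l2, whose level varied little, was close to Tbl3 (0.04) and Ppp2r1a (0.05).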

How the data were processed

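The authors aligned reads with STAR 2.7.3a to GRCm38.p6 and counted read pairs per gene of Ensembl release 102 with featureCounts 2.0.3 without strand, per the submitters' processing notes and the file headers. The study's methods state single reads, whereas the deposited table holds raw counts of read pairs, with the exon length of each gene in bases. Tables of the authors' DESeq2 comparisons were deposited too, holding a mean signal per gene (counts divided by size factors), fold changes and p-values. Their symbols were used for 14823 tested genes, a reference table gave 23 more, and their values were not used. No count column (0) lacked a sample.

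Genes passed filterByExpr (minimum count 10, minimum total 15) in edgeR 4.0.16 under R 4.3.3. A single quasi-likelihood fit with TMM factors and the group as its only term covered all 9 libraries (biological coefficient of variation 0.0927). The procedure was also run on simulated data in which few genes changed, evenly up and down, so that run does not bear on the scaling used here. Log2 CPM used a prior count of 2. Control and Reloading libraries with the same number in the descriptions had correlated deviations from their group means (0.361, 0.143 and 0.155). With the numbers in the titles the correlations were -0.19, -0.20 and -0.02. The value of 0.361 is that of Control 2 with Reloading 1, which are also the libraries with skin transcripts. Whether the numbers mark paired libraries was not tested. Alternatives were DESeq2 1.42.0, other scalings, no filter, a robust fit, 2 groups only, blocks by number and libraries left out.

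The 10 genes and all lists were chosen with earlier results of these data known. Named from the lists were Keap1, Bach1, Hmox1, Nfe2l1 and, per role and comparison, up to 2 higher and 2 lower genes with the largest change among those with an adjusted p under 0.05. For likeness, 3 genes each were named for Nfe2l2 and for the genes that rose and fell most, of which 1 is not reported here.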

Additional observations from a re-analysis of the deposited data

Results flagged for a closer look

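Among the 4 Control libraries, 3 of 49 genes had a library far from the others by Dixon's criterion, and chance flags about 1 in 20 groups. Akr1b8 was at 0.686 CPM in Control 4 and at 1.16 to 1.24 CPM in the other Control libraries. Hmox1 was at 4.03 CPM in Control 4, against 5.75 to 5.86 CPM. Me1 was at 277 CPM in Control 2, which held skin transcripts, against 290 to 292 CPM.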

How the results depend on the processing

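Limits: Unloading had 2 libraries, and Slc7a11 was under the depth. With each library left out in turn, called genes numbered 3934 to 5654 (Reloading against Unloading), 121 to 1518 (Unloading against Control) and 5267 to 6506 (Reloading against Control), beside 5562, 1470 and 6456 with all libraries, antioxidant genes of the 9 tested numbered 5 to 6, 1 to 2 and 6 to 6, and pathway genes of the 85 numbered 34 to 45, 2 to 14 and 47 to 54. For Unloading against Control the count was 121 without Unloading 1 and 949 without Control 3. Library totals alone raised the share of higher calls from 49.3% to 82.8% (Reloading against Unloading) and from 50.9% to 80.2% (Reloading against Control), and of the 9 genes 6 were then higher and 1 lower in both, Gclm against Control at 0.28 (adjusted p = 0.0309). Other scalings, no filter, a robust fit, DESeq2 and 2 groups only changed no call of the 9 genes.

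For Reloading against Control, the replicate block by description number gave 6632 genes, and the replicate block by title number 5705, with 6 of the 9 genes called in each. Both blocks kept every call of the 9 genes in all comparisons. The description block lost Gpx8 (0.63, adjusted p = 0.0641) and Sod3 (0.45, adjusted p = 0.104) against Unloading and Msra (adjusted p = 0.0523) and Txnl1 (adjusted p = 0.0933) in Unloading against Control, and the title block Txn1 against Control (0.25, adjusted p = 0.0628) and Gsta4, Msra and Txnl1 in Unloading against Control (adjusted p = 0.0510, 0.0507 and 0.129).

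The signs that turned were those of changes that did not pass the test with all libraries and TMM scaling. With library totals alone these were Nqo1 (0.15 and 0.17), Keap1 (0.16) and Bach1 (0.040) against Unloading, Bach1 (0.035) and Nfe2l1 (0.15) against Control and Bach1 in Unloading against Control (-0.0055). Nfe2l1 against Unloading turned under the description block (-0.051), Hmox1 in Unloading against Control under the title (-0.080) and description (-0.034) blocks, and Keap1 against Control under the description block (-0.030), DESeq2's size factors (-0.0062) and DESeq2's Wald test (-0.0065). Without both libraries with skin transcripts, Gclm (-0.060) and Keap1 (-0.015) against Control and Bach1 in Unloading against Control (-0.053) turned. With 1 library left out, Gclm ranged from -0.023 to 0.27 against Unloading, from -0.24 to 0.064 in Unloading against Control and from -0.018 to 0.14 against Control, Keap1 from -0.031 to 0.050 against Control, and Nfe2l1 from -0.031 to 0.15 against Unloading. In Unloading against Control, the ranges were -0.072 to 0.14 for Nfe2l2, -0.14 to 0.026 for Txnrd1, -0.055 to 0.074 for Bach1 and -0.12 to 0.42 for Hmox1. The cause was not tested.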

Other observations

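Nnt (chosen after its values were seen), the mitochondrial transhydrogenase that makes NADPH and that is disrupted in the C57BL/6J strain, had 12 to 23 read pairs per library, or 0.868 to 2.14 CPM, and did not pass the test in any comparison. The 3 groups share this low level.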
